A study of Sus scrofa with 8 samples.

Results

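LIF, interleukin 6 and the receptor chains of their cytokine family were followed in the endometrium, the inner lining of the uterus, of 4 pregnant and 4 non-pregnant gilts (young female pigs) on day 14 after insemination. The group was set by name and held 8 genes: the ligands LIF and IL6 and the receptor chains LIFR, IL6R, IL6ST, IL11RA, OSMR and CNTFR. Entrez gene identifiers tied 7 of them to transcripts in the count tables, of 21064 genes in all, and LIFR is not analysed here. A gene with several transcripts was represented by the one with the highest mean count, and CNTFR alone had more than 1.

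The pregnant gilts were German Landrace animals inseminated with Pietrain semen and killed on day 14 of pregnancy. The controls were gilts of the same breed, killed on day 14 of the oestrous cycle after insemination with semen supernatant of the same boar. Gilts of both groups were prepuberal and had ovulation induced with PMSG and hCG, so neither group had a natural cycle. Endometrium of pregnant gilts was taken from hyperaemic zones, the reddened sites of embryo attachment, and that of controls from comparable places, so pregnancy and the choice of those zones cannot be told apart. RNA from the proximal, medial and distal part of 1 uterine horn was pooled, and each library stands for 1 animal.

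Cytokines of the interleukin 6 family act through receptor complexes that share the signalling chain IL6ST, also called gp130. IL6 and IL11 first bind their own chains, IL6R and IL11RA, which then bring IL6ST chains together. LIF pairs LIFR with IL6ST, oncostatin M pairs OSMR with IL6ST, and ciliary neurotrophic factor and its relatives bind CNTFR, which joins LIFR and IL6ST. The complexes activate JAK kinases and the transcription factor STAT3. In mice, LIF from the uterine glands is needed for implantation and IL11RA for decidualization, and in pigs the endometrium is known to make LIF around the time of conceptus attachment.

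Total counts per library ran from 28035007 to 41016150, and 18783 transcripts could be tested. In a principal component analysis of 500 highly variable transcripts, the first axis held 76.9% of the variance, on which the pregnant libraries scored −42.19 to −35.48 and the controls 27.81 to 46.07. Control replicate 4 was the control nearest to the pregnant libraries, at 27.81, where the other controls scored 42.32 to 46.07. All 8 matched epithelial markers and all 8 matched stromal fibroblast markers passed the filter on low counts. As 18783 transcripts passed that filter, it cannot by itself show that a cell type was present.

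In pregnant endometrium the shared signalling chain IL6ST was 2.63-fold higher than in controls, the interleukin 6 receptor IL6R 1.91-fold and the oncostatin M receptor OSMR 1.597-fold. The interleukin 11 receptor IL11RA fell to 137 ± 33.5 CPM in pregnant gilts, against 259.6 ± 66.7 CPM in controls. CPM are counts per 1000000 reads of the scaled library, given as mean ± SD with n = 4 per group. Neither ligand passed the test, nor did CNTFR. At an adjusted p under 0.05 (edgeR quasi-likelihood F-test, adjusted after Benjamini and Hochberg over all transcripts) 3 of the 7 genes were higher in pregnant gilts and 1 was lower. Among all transcripts tested 11.2% were higher and 10.1% lower, 21.3% in all. The median log2 change was −0.49 over the 7 genes and −0.02 over all transcripts. The value of −0.49 is that of LIF, which did not pass and whose change was 0.12 without control replicate 4. It therefore shows no common direction of the 7 genes. The number called fell to 2 when pregnant replicate 2, pregnant replicate 4 or control replicate 1 was left out, where IL6ST and IL6R did not pass, and to 3 without pregnant replicate 3 or control replicate 3, where IL6R did not. Without control replicate 4, the control that stood apart, all 4 passed, with log2 changes of 1.32 for IL6ST (edgeR adjusted p = 0.0455), 1.02 for IL6R (0.0327), 0.71 for OSMR (0.01995) and −1.09 for IL11RA (0.00219). The tissue is a mixture of cell types, in which fewer cells of a type and less RNA per cell cannot be told apart.

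**Figure D1:**
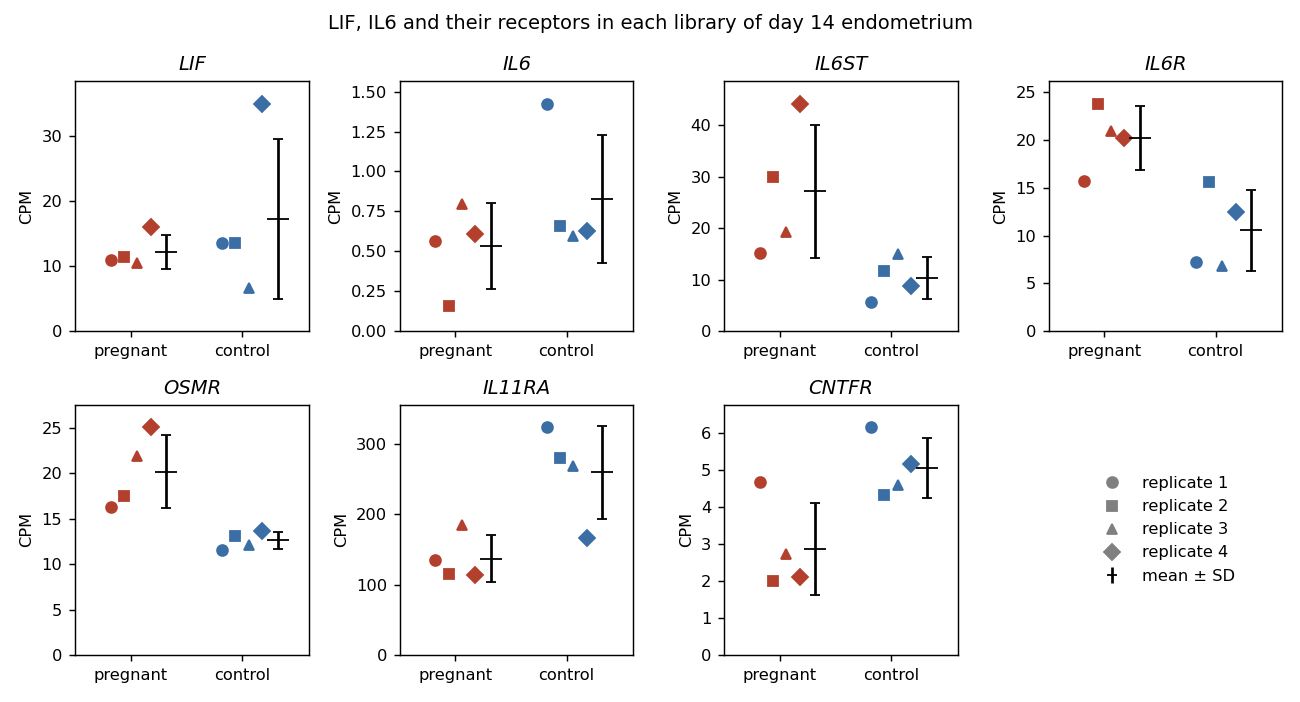
Level in CPM (vertical axes, each from 0) of the 7 genes in each library, pregnant left of control, with 1 symbol per replicate number and the mean ± SD of 4 libraries in black. IL6ST, IL6R and OSMR lie higher in all 4 pregnant libraries than in any control, and LIF has 1 control library at 34.9 CPM.

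Marker genes of several cell types moved with the groups, and their part in the changes of the cytokine and receptor genes and their pathway was not tested. Beside the counts here and in the next paragraph, 11.2% of all transcripts tested were higher and 10.1% lower. Of 8 tested T cell markers 7 were higher and 0 lower in pregnant gilts, and the matched markers summed to 90.6 to 160.5 CPM in pregnant and 25.7 to 70.8 CPM in control libraries. Of 8 macrophage and dendritic cell markers 7 were higher and 1 lower, with sums of 1118 to 1473 CPM in pregnant and 376 to 686 CPM in control libraries. Such immune cells also use PTPN6 and EBI3, which are examples and not the only genes reported here that they may use. Of 6 neutrophil markers 3 were higher and 1 lower (141 to 513 CPM against 15.8 to 19.1 CPM), and MPO had 0 reads in every library. S100A9 made up most of the pregnant sums, at 118 to 492 CPM against 0.271 to 0.63 CPM in controls. S100A8 and S100A12 were also higher, MMP8 was lower (log2 change −6.14), and ELANE and CXCR2 did not pass. These markers were named after their values were seen.

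Of 8 epithelial markers 1 was higher and 3 lower (sums of 1701 to 2401 CPM in pregnant and 2244 to 3462 CPM in control libraries). Of 8 stromal fibroblast markers 2 were higher and 2 lower (16240 to 23760 CPM against 24880 to 29630 CPM). Of 7 smooth muscle markers 0 were higher and 5 lower (422 to 629 CPM against 682 to 1093 CPM), and of 7 endothelial markers 2 were higher and 0 lower (1025 to 1371 CPM against 814 to 1271 CPM). None of 3 tested erythrocyte markers passed by edgeR (168 to 804 CPM against 221 to 521 CPM).

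LIF, the ligand of the LIFR and IL6ST complex, is encoded on chromosome 14 (Entrez gene 399503, Sscrofa10.2 positions 50263721 to 50266706, minus strand), and its counts cover 3 exons of 609 bases. It stood at 10.9, 11.4, 10.49 and 16.1 CPM in pregnant replicates 1 to 4, against 13.6, 13.5, 6.64 and 34.9 CPM in control replicates 1 to 4. The pregnant values lay within the control range, and control replicate 4 was more than 2 times as high as any other library. The means were 12.2 ± 2.59 CPM in pregnant gilts and 17.2 ± 12.3 CPM in controls. The log2 change was −0.49 ± 0.42 (± SE here and below), with a 95% interval of −1.42 to 0.43 (edgeR adjusted p = 0.438). Without control replicate 4 it was 0.12 ± 0.27 (edgeR adjusted p = 0.798, range over the alternatives 0.155 to 0.798), so the direction rested on that library. The coefficient of variation was 21.2% in pregnant gilts and 71.4% in controls.

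IL6, a ligand of the acute-phase response, is encoded on chromosome 9 (Entrez gene 399500, positions 101081041 to 101085450, 5 exons). It was read only 66 times over the 4 pregnant libraries and 104 times over the 4 control libraries. The pregnant libraries held 16, 6, 24 and 20 reads, against 42, 22, 18 and 22 in the controls. The groups overlapped, with the highest count in control replicate 1. The log2 change was −0.64 ± 0.50, with a 95% interval of −1.75 to 0.46 (edgeR adjusted p = 0.396).

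IL6ST, the chain common to all these receptors, lies on chromosome 16 (Entrez gene 100037294, positions 37476139 to 37522637, 16 exons of 2993 bases in all). It stood at 15.2, 29.97, 19.2 and 44.1 CPM in pregnant replicates 1 to 4, against 5.697, 11.8, 15.04 and 8.707 CPM in control replicates 1 to 4. Every pregnant library was higher than every control, although pregnant replicate 1 and control replicate 3 were nearly equal. IL6ST rose by 1.397 ± 0.37 on the log2 scale (95% interval 0.58 to 2.21, edgeR adjusted p = 0.0217). IL6ST also varied widely among animals, with a coefficient of variation of 47.7% in pregnant gilts and 39.0% in controls. When pregnant replicate 2, pregnant replicate 4 or control replicate 1 was left out it did not pass (edgeR adjusted p = 0.0525, 0.0574 and 0.0515), and the range over the alternatives was 0.000664 to 0.0574. In these cases the log2 change was 1.35, 1.06 and 1.22.

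IL6R binds interleukin 6 and exists as a membrane and a soluble form. It lies on chromosome 4 (Entrez gene 399522, positions 104202229 to 104250107), and the model counted was short, with 5 exons of 760 bases. IL6R stood at 15.7, 23.8, 20.9 and 20.2 CPM in pregnant replicates 1 to 4, against 7.26, 15.6, 6.87 and 12.5 CPM in control replicates 1 to 4. The groups did not overlap, but the lowest pregnant and the highest control library were nearly equal. IL6R rose by 0.93 ± 0.26 on the log2 scale (95% interval 0.35 to 1.52, edgeR adjusted p = 0.0288). The call was lost when pregnant replicate 2, 3 or 4 was left out (edgeR adjusted p = 0.0845, 0.064 and 0.0611), and likewise control replicate 1 or 3 (0.0567 and 0.072), within a range over the alternatives of 0.00411 to 0.0845. The log2 change then lay between 0.78 and 0.94.

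OSMR, the chain that answers to oncostatin M, is also on chromosome 16 (Entrez gene 100519398, positions 25288992 to 25348826, 18 exons of 4542 bases). It stood at 16.3, 17.5, 21.9 and 25.1 CPM in pregnant replicates 1 to 4, against 11.6, 13.1, 12.2 and 13.6 CPM in control replicates 1 to 4. All pregnant libraries were above all controls, and the controls were the most uniform of any of the 7 genes, with a coefficient of variation of 7.29%. OSMR rose by 0.68 ± 0.16 on the log2 scale (95% interval 0.32 to 1.04, edgeR adjusted p = 0.0134) and passed under every alternative tried. Of the 7 genes, 3 did not overlap between the groups, all higher in pregnant gilts. Of all transcripts tested 26.1% did not overlap, 13.2% higher and 12.9% lower.

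IL11RA, which binds interleukin 11, lies on chromosome 10 (Entrez gene 100524166, positions 36278828 to 36289163, minus strand, 13 exons of 1838 bases). It stood at 135, 115, 185 and 113 CPM in pregnant replicates 1 to 4, against 324, 279.8, 269 and 166 CPM in control replicates 1 to 4. Control replicates 1 to 3 were above every pregnant library, and control replicate 4 was below pregnant replicate 3. The log2 change was −0.92 ± 0.22 (95% interval −1.41 to −0.44, edgeR adjusted p = 0.0127), and IL11RA passed under every alternative tried. IL11RA was also the most abundant of the receptor chains, with 3706 to 5590 reads in pregnant and 5798 to 9545 reads in control libraries.

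CNTFR, the binding chain for ciliary neurotrophic factor, lies on the same chromosome (Entrez gene 100524518, positions 36352599 to 36392625, 10 exons of 2055 bases). It stood at 4.67, 1.99, 2.71 and 2.11 CPM in pregnant replicates 1 to 4, against 6.14, 4.31, 4.58 and 5.16 CPM in control replicates 1 to 4. Pregnant replicate 1 lay within the control range and the other pregnant libraries lay below it. The log2 change was −0.82 ± 0.29 and did not pass (edgeR adjusted p = 0.0689), although its 95% interval of −1.46 to −0.18 left out 0. The second transcript, with 9 exons of 1935 bases, had nearly the same counts as the first and a log2 change of −0.87 ± 0.29 (edgeR adjusted p = 0.0559). CNTFR passed without pregnant replicate 1 (log2 change −1.15, edgeR adjusted p = 0.00851), with DESeq2 (adjusted p = 0.0337) and with limma voom (adjusted p = 0.0378), and the range over the alternatives was 0.00851 to 0.174. The model shares 7 exonic bases with DNAI1 on the opposite strand, whose reads cannot be told apart there.

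**Figure D2:**
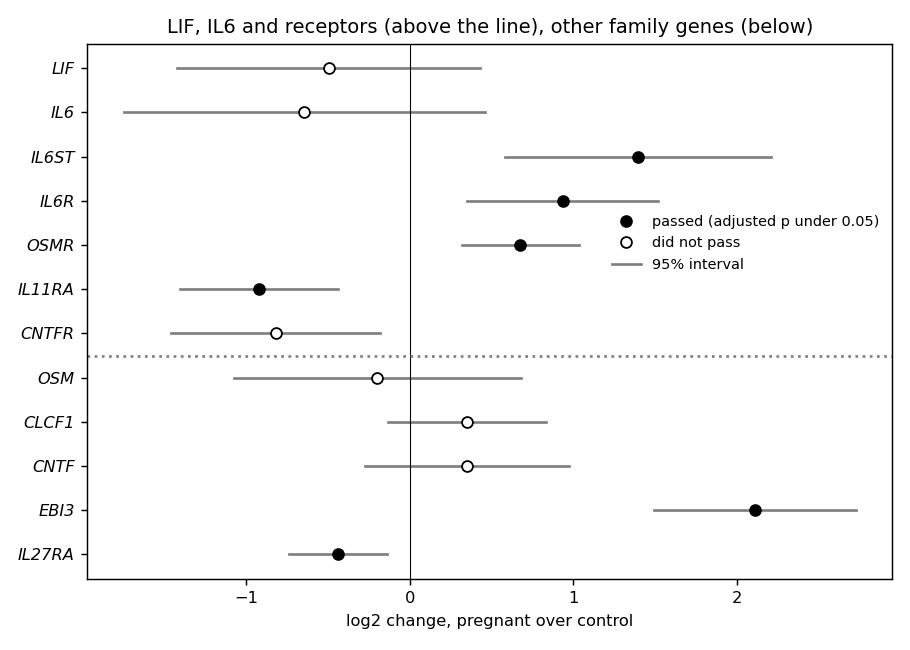
Log2 change of pregnant over control (horizontal axis) with its 95% interval for the 7 genes and, below the dotted line, for 5 other genes of the family. Filled points passed an adjusted p of 0.05, among them IL6ST at 1.397 and IL11RA at −0.92, and open points did not.

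Levels between genes were compared as CPM per kilobase of counted exon. In pregnant endometrium the order was IL11RA at 74.6 ± 18.2, IL6R at 26.5 ± 4.41, LIF at 20.03 ± 4.25, IL6ST at 9.06 ± 4.32, OSMR at 4.44 ± 0.889, CNTFR at 1.396 ± 0.605 and IL6 at 0.474 ± 0.239. In this order the ranges of IL6R and LIF overlapped, as did those of IL6ST and OSMR. In control endometrium IL11RA stood at 141 ± 36.3, LIF at 28.2 ± 20.1, IL6R at 13.9 ± 5.56, IL6ST at 3.44 ± 1.34, OSMR at 2.78 ± 0.203, CNTFR at 2.46 ± 0.393 and IL6 at 0.737 ± 0.355 CPM per kilobase. Here the ranges of LIF and IL6R overlapped, and IL6ST overlapped with OSMR and OSMR with CNTFR. IL11RA was thus the highest of the 7 in both groups. Over all libraries it was above 95.8% of the 12704 tested genes with a symbol, while IL6 was above 8.22% of them. The models of LIF and IL6R are short, so their levels per kilobase depend on which part of the gene was counted.

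**Figure D3:**
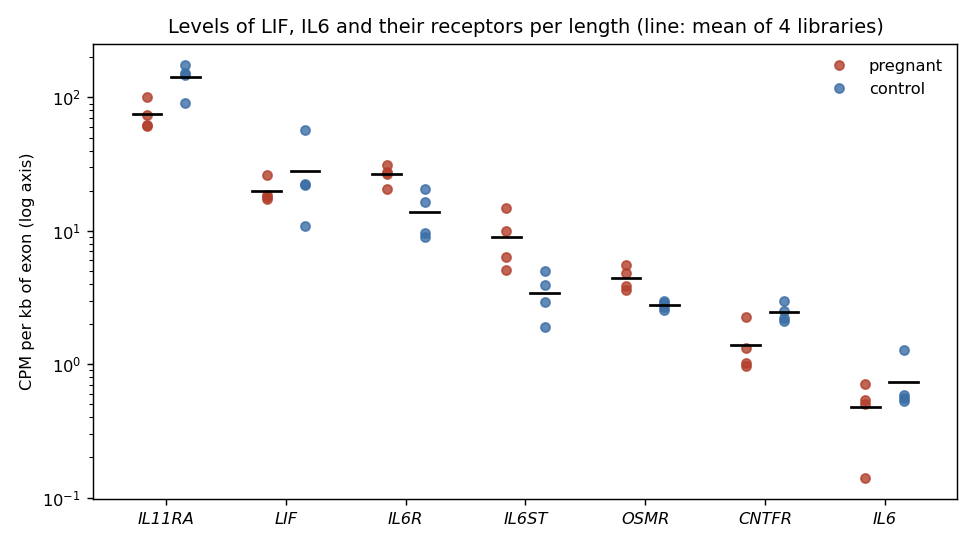
Level of the 7 genes in CPM per kilobase of counted exon (log axis), 1 point per library, pregnant left of control, with a line at the mean of 4 libraries. IL11RA is highest in both groups, at a mean of 74.6 in pregnant and 141 in control endometrium, and IL6 lowest.

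The make-up of the receptors relative to the shared chain was compared as the log2 ratio of each receptor to IL6ST per length within a library, which does not depend on library scaling. IL11RA exceeded IL6ST in every library, by a log2 ratio of 3.86, 2.64, 3.97 and 2.06 in pregnant replicates 1 to 4 and of 6.53, 5.27, 4.86 and 4.96 in control replicates 1 to 4. The groups did not overlap, and the geometric mean of the ratio was 8.77 in pregnant gilts and 42.4 in controls. The difference of −2.27 had an exact permutation p of 0.0286 (two-sided, 70 assignments, the smallest possible), and 0.114 adjusted over the 4 ratios computed. CNTFR to IL6ST averaged −2.66 ± 1.197 in pregnant gilts and −0.41 ± 0.813 in controls (exact permutation p = 0.0571, 0.114 adjusted), and 1 pregnant library overlapped with the controls. IL6R to IL6ST averaged 1.66 ± 0.572 in pregnant gilts and 2.01 ± 0.779 in controls (exact permutation p = 0.486), and OSMR to IL6ST −0.93 ± 0.546 and −0.22 ± 0.579 (exact permutation p = 0.143, 0.191 adjusted). None of the 4 ratios passed after adjustment, and the design could not have given a p under 0.0286. All 4 ratios share IL6ST, which rose more than any of these receptors. Their means were thus all lower in pregnant gilts, also for IL6R and OSMR, which themselves rose. The ratios are made from the changes given above and are not separate evidence.

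**Figure D4:**
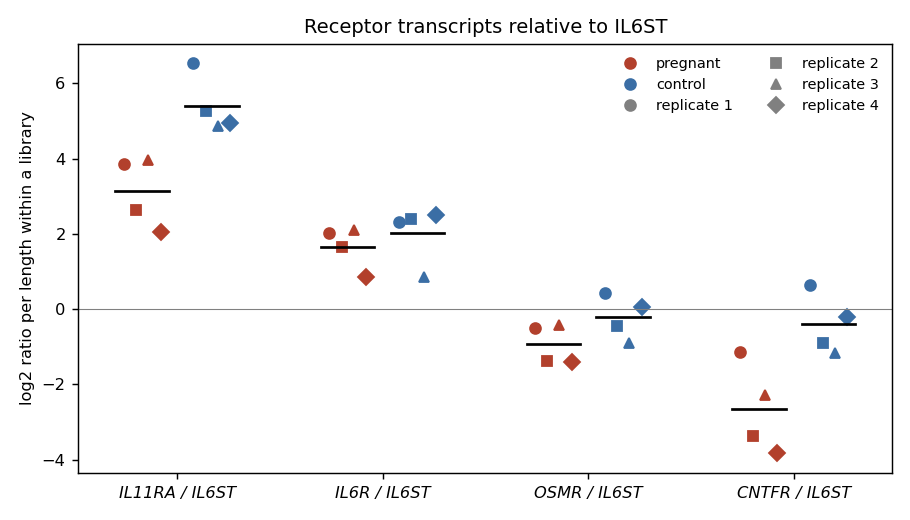
Log2 ratio of 4 receptor transcripts to IL6ST per length within each library (vertical axis), pregnant left of control, with 1 symbol per replicate number and a line at the mean. For IL11RA the 4 pregnant ratios, 2.06 to 3.97, lie below the 4 control ratios, 4.86 to 6.53.

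Of 9 other ligands and receptors of the family, 6 were matched and 5 tested. Of these 5, 1 was higher and 1 lower in pregnant gilts (11.2% and 10.1% of all transcripts tested). EBI3, a subunit of interleukin 27 and interleukin 35, stood at 5.84, 7.24, 6.75 and 5.31 CPM in pregnant replicates 1 to 4, against 2.103, 0.898, 1.66 and 1.17 CPM in control replicates 1 to 4. It rose by 2.11 ± 0.28 on the log2 scale (edgeR adjusted p = 0.000448) and passed under every alternative tried.

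IL27RA, the receptor chain for interleukin 27, was at 35.6 ± 5.38 CPM in pregnant gilts and 48.2 ± 4.77 CPM in controls. Its log2 change of −0.44 ± 0.14 (edgeR adjusted p = 0.0429) was lost without any 1 library other than pregnant replicate 1 (0.0545 to 0.123), with DESeq2's size factors in edgeR (0.0542), with no filter on low counts (0.0646) and with a replicate block (0.066). The range over the alternatives was 0.0219 to 0.123. The ligands did not pass. CLCF1 was at 13.6 ± 2.497 CPM in pregnant gilts and 10.6 ± 3.02 CPM in controls (edgeR adjusted p = 0.286). CNTF was at 2.07 ± 0.614 CPM in pregnant gilts and 1.63 ± 0.27 CPM in controls (edgeR adjusted p = 0.414). Oncostatin M (OSM), the ligand of OSMR, was at 1.24 ± 0.535 CPM in pregnant gilts and 1.43 ± 0.624 CPM in controls (edgeR adjusted p = 0.768), and its small difference changed sign without control replicate 2. IL31RA had 23 reads over the pregnant and 30 over the control libraries and was not tested.

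Some of these genes lie near each other. LIF and OSM lie 15962 bases apart on chromosome 14 with no gene between them in the deposited annotation, and IL6ST and IL31RA 39319 bases apart on chromosome 16. IL11RA and CNTFR lie 63435 bases apart on chromosome 10, with 5 genes between them.

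Downstream of the receptors, 5 of 12 tested genes of receptor-proximal signalling were higher in pregnant gilts and 0 lower, with a median log2 change of 0.47, where 11.2% of all transcripts tested were higher and 10.1% lower. Without pregnant replicate 4 the number was 1, and without pregnant replicate 3 or control replicate 3 it was 3. This list and the pathway lists below were written with earlier results of these data known. Their shares are therefore no independent comparison with all transcripts. The docking protein gene GAB1, at 35.3 ± 6.93 CPM in pregnant gilts and 17.7 ± 3.003 CPM in controls, rose by 1.00 ± 0.18 on the log2 scale (edgeR adjusted p = 0.00258). The gene JAK2, among the JAK kinases that phosphorylate the receptors, rose by 1.08 ± 0.28 (edgeR adjusted p = 0.0188). The exchange factor gene SOS1 rose by 0.57 ± 0.15 (edgeR adjusted p = 0.0185) and the phosphoinositide 3-kinase subunit gene PIK3R1 by 0.79 ± 0.22 (0.0245). Without pregnant replicate 4 these did not pass (edgeR adjusted p = 0.0598 for JAK2, 0.059 for SOS1 and 0.0697 for PIK3R1), nor did PIK3R1 without pregnant replicate 3 or control replicate 3 (0.0596 and 0.0716). Their ranges over the alternatives were 0.00113 to 0.0598, 0.00161 to 0.059 and 0.00431 to 0.0716. STAT5A, a transcription factor that relays cytokine signals, was at 82.6 ± 2.84 CPM in pregnant gilts and 54.3 ± 15.6 CPM in controls and rose by 0.60 ± 0.18 (edgeR adjusted p = 0.0362). Its call was lost when any 1 library other than control replicate 4 was left out (0.0701 to 0.0763, range over the alternatives 0.00307 to 0.0763).

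STAT3 itself was at 266 ± 29.1 CPM in pregnant gilts and 212 ± 24.2 CPM in controls and did not pass (log2 change 0.33 ± 0.13, edgeR adjusted p = 0.0922). With DESeq2 it passed narrowly (adjusted p = 0.0496, range over the alternatives 0.0496 to 0.217). The kinase gene TYK2 was at 172 ± 9.46 CPM in pregnant gilts and 191 ± 18.6 CPM in controls (edgeR adjusted p = 0.362). The kinase gene JAK1, named after its values were seen, did not pass either (log2 change 0.55 ± 0.22, edgeR adjusted p = 0.103).

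Of 11 tested negative regulators and shedding enzymes 4 were higher and 0 lower (11.2% and 10.1% of all transcripts), with a median log2 change of 0.40. SOCS1, which blocks JAK kinases, was at 118 ± 22.6 CPM in pregnant gilts and 22.1 ± 12.2 CPM in controls and rose by 2.41 ± 0.34 (edgeR adjusted p = 0.000727). The phosphatase genes PTPN2 and PTPN6 rose by 0.72 ± 0.12 and 0.66 ± 0.15 (edgeR adjusted p = 0.00192 and 0.00996). The fourth, CISH, rose by 0.80 ± 0.25 (edgeR adjusted p = 0.0411), and the call was lost when pregnant replicate 2 or 3 or control replicate 2, 3 or 4 was left out (0.0834 to 0.114, range over the alternatives 0.0108 to 0.114). The phosphatase gene PTPN1 was at 66.9 ± 9.104 CPM in pregnant gilts and 58.3 ± 3.55 CPM in controls (edgeR adjusted p = 0.279). PIAS3, an inhibitor of STAT3, was at 55.3 ± 3.098 CPM in pregnant gilts and 65.5 ± 3.103 CPM in controls (edgeR adjusted p = 0.109). SOCS3, the main feedback inhibitor at IL6ST, is not analysed here.

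Genes listed as STAT3 targets, which STAT3 is known to induce in other tissues, were called in both directions. Of 20 tested 8 were higher and 2 lower (11.2% and 10.1% of all transcripts), with a median log2 change of 0.23. The immune regulator gene FGL2 was at 77.6 ± 17.2 CPM in pregnant gilts and 13.97 ± 2.25 CPM in controls (log2 change 2.47 ± 0.18, edgeR adjusted p = 1.7e-05). The kinase gene PIM1 rose by 2.36 ± 0.32, ZFP36, which promotes messenger RNA decay, by 1.34 ± 0.20, the transcription factor gene JUNB by 1.101 ± 0.22 and SBNO2 by 0.60 ± 0.12 (edgeR adjusted p = 0.000505, 0.000987, 0.00479 and 0.00468). The 2 that were lower were fibrinogen chain genes, FGG (log2 change −2.31 ± 0.47) and FGB (−0.96 ± 0.25), named after their values were seen. The call of FGB was lost when pregnant replicate 2 or 4 or control replicate 2 was left out. CEBPB, a transcription factor of the acute-phase response, was at 86.8 ± 13.9 CPM in pregnant gilts and 92.0 ± 20.2 CPM in controls (edgeR adjusted p = 0.78). CEBPD, another of these factors, was at 221.6 ± 33.03 and 168 ± 53.7 CPM (edgeR adjusted p = 0.216). Of the 2800 counted CEBPD bases 1372 are shared with a gene on the opposite strand. The CEBPD model has 3 exons between positions 87368896 and 87543249 of chromosome 4, so its counts may not be of CEBPD alone.

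Of 10 uterine genes tied to LIF action in mice 5 were higher and 1 lower (11.2% and 10.1% of all transcripts). The median log2 change of the 10 was 0.69. This list too was written with earlier results of these data known. AREG, a growth factor gene, had 136 reads in pregnant and 6 in control libraries, and its log2 change of 4.33 ± 0.71 (edgeR adjusted p = 0.00158) was 5.43 without control replicate 1. HBEGF, a related growth factor, rose by 1.84 ± 0.38 (edgeR adjusted p = 0.006). ERBB3, a gene of the ERBB receptor family, rose by 1.20 ± 0.29 and the stromal transcription factor gene HAND2 by 0.98 ± 0.17 (edgeR adjusted p = 0.0133 and 0.00236). MSX1, a homeobox gene that is shut down at implantation in mice, fell to 32.7 ± 5.61 CPM in pregnant gilts, against 64.7 ± 13.1 CPM in controls (edgeR adjusted p = 0.00266). FOXA2, the gland transcription factor needed for LIF in mice, was at 26.5 ± 9.93 CPM in pregnant gilts and 34.1 ± 12.5 CPM in controls (edgeR adjusted p = 0.454), and EGR1 at 175 ± 19.1 and 148 ± 23.9 CPM (0.256).

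**Figure D5:**
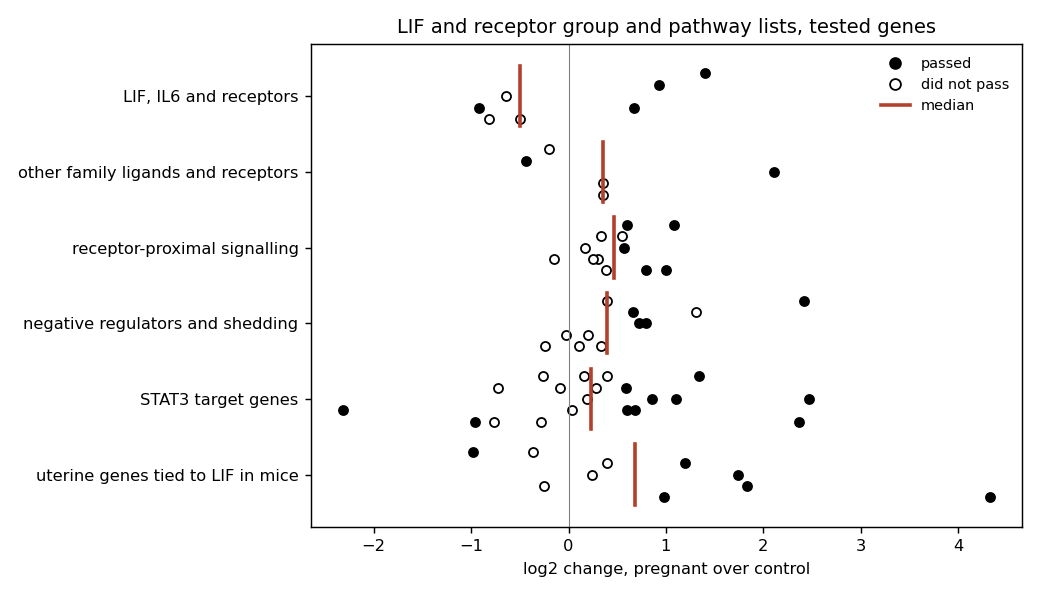
Log2 change of pregnant over control (horizontal axis) for the tested genes of each list, filled where the adjusted p was under 0.05, with the list median in red. The median is −0.49 for LIF, IL6 and receptors, which is the value of LIF itself. It is 0.69 for the uterine genes tied to LIF in mice. The lists were written with earlier results of these data known.

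Genes with the most similar pattern were those with the smallest mean difference in log2 CPM over the 8 libraries, each gene centred on its own mean, among 10167 genes with a symbol and an average log2 CPM of at least 1. For IL11RA these were MSX1 (0.084), PAAF1 (0.115) and SHROOM1 (0.115), where the median gene was 0.535 away. For OSMR they were ZBTB44 (0.095), OGFRL1 (0.097) and MCL1 (0.102), and for CNTFR SEMA6C (0.102), TCTN3 (0.13) and FGFR1 (0.148). IL6R was nearest to NABP1 (0.14), SLC39A14 (0.145) and RELL1 (0.146), and IL6ST to PLEKHH2 (0.194), IKZF3 (0.225) and PTBP3 (0.233). LIF, with its high control library, had no gene nearer than CASTOR2 (0.211), PPP1R16B (0.217) and SMAD3 (0.24). IL6 was nearest to KLF17 (0.264), CRYAB (0.264) and KLB (0.281) among 10168 genes.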

How the data were processed

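The values analysed are raw read counts for each transcript, which the authors deposited as 1 table for each library. Exon positions of the counted models on Sscrofa10.2 came from an annotation file deposited with them. CASAVA 1.6, TopHat 1.4, Cufflinks 1.3 and DESeq are listed in the submitters' processing notes, and the counting tool is not given in the sources used here. Libraries were poly(A)-selected with a kit that does not mark strand, per the labels' protocols. RefSeq's pig gene table (Sscrofa11.1) served for symbols only: 19127 of 24139 transcripts matched by Entrez ID and a further 113 by accession.

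The tests used edgeR 4.0.16 under R 4.3.3: TMM scaling, filterByExpr (minimum count 10), and a robust quasi-likelihood model with group as its only term, over the 18783 transcripts left. SE are those implied by the F statistic. For ratios, 0.5 was added to counts. The code was tested on simulated data. Alternatives were DESeq2 1.42.0, limma 3.58.1 voom, other scalings, no filter, 1 transcript per gene, a replicate block and leaving out each library. The genes and lists were chosen with earlier results of these data known. Named were the 7 genes and other family genes, and of each pathway list up to 5 that passed with the smallest p and up to 2 others with the highest mean count. Some genes of these lists are not reported here. PCR reads are not independent molecules.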

Additional observations from a re-analysis of the deposited data

Results flagged for a closer look

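Of 34 groups of 4 values checked, 3 held a library far from the other 3 of its group, and chance flags about 1 group in 20. LIF stood at 16.1 CPM in pregnant replicate 4, where the other pregnant libraries lay between 10.49 and 11.4 CPM. IL6 stood at 1.42 CPM in control replicate 1, where the other controls lay between 0.597 and 0.659 CPM. The log2 ratio of IL6R to IL6ST was 0.85 in control replicate 3, where the other controls lay between 2.33 and 2.49.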

How the results depend on the processing

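The 4009 transcripts called became 3436 to 4988 under the other tools and settings and 2864 to 4127 when 1 library was left out. Of the 7 genes 4 were called, 5 with DESeq2, limma voom or the replicate block, and 2 to 5 when 1 library was left out. The called genes of the 4 pathway lists and the other family genes numbered 27, and 20 to 26 when 1 library was left out. The difference in log2 ratio to IL6ST, with 1 library left out, was −0.74 to −0.09 for IL6R, −2.55 to −1.90 for IL11RA, −0.93 to −0.49 for OSMR and −2.75 to −1.86 for CNTFR. Signs changed for LIF without control replicate 4 (log2 changes −0.76 to 0.12 over all libraries left out), for OSM without control replicate 2 (−0.53 to 0.11) and for CEBPB without pregnant replicate 4 (0.016) or control replicate 1 (−0.21 to 0.033). The cause was not tested. The libraries carry replicate numbers from 1 to 4 in both groups, but the animals were different. Correlations of same-numbered libraries were 0.186, −0.093, −0.032 and 0.085, and those of differently numbered libraries −0.328 to 0.167. So few correlations cannot show whether same-numbered libraries shared a batch. With the replicate block 3883 transcripts passed, CNTFR passed (log2 change −0.88, edgeR adjusted p = 0.0365), and IL27RA and CISH did not. IL31RA had too few reads to be tested.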
